A study of Mus musculus with 16 samples.

Results

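Mitosis and chromosome segregation genes are the genes whose products drive a cell from late G2 through division. The set described here was a list of 47 such genes, written down by name as mitotic cyclins, kinases, kinesins, kinetochore, condensin and cytokinesis genes. A gene was taken as measured where the array annotation gave its symbol alone on at least 1 feature, and 46 of the 47 were found this way, among 19938 named genes in all. Ccnb1, which encodes cyclin B1, is not analysed here.

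The cells were mouse bone-marrow derived macrophages, grown from marrow in L-cell conditioned medium, and all of them carried the H3.3-HA knock-in allele, so no group without that allele was compared. They were either naive or pretreated and were harvested at 0, 3 or 6 h, the labels naming interferon-gamma, the cytokine of activated T and NK cells, as the treatment. How long, and at what dose, the pretreated cells had been exposed before the time course is not given in the sources used here. RNA of 16 arrays fell into 6 groups, with 4 arrays each for naive 0 h and pretreated 0 h and 2 arrays each for naive 3 h, naive 6 h, pretreated 3 h and pretreated 6 h. Numbers in the sample titles split the arrays into 2 sets of 8. Set 1 holds all 6 h arrays with 0 h replicates 1 and 2, and set 2 holds all 3 h arrays with 0 h replicates 3 and 4, so each time point was compared with the 0 h arrays of its own set. The labels name no 6 h or 3 h culture without interferon, so time in culture and treatment cannot be told apart. Nothing in the labels says that replicates came from separate mice or cultures, so p-values measure the spread between these arrays, which may be technical.

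Entry into mitosis needs cyclin-dependent kinase 1 bound to cyclin A or B, and Polo-like and Aurora kinases then build the spindle, attach chromosomes to it and time their separation. Most of these genes are transcribed late in the cell cycle and are kept low in resting cells. The DREAM repressor complex and the B-Myb and FoxM1 activators act on them through a short promoter element, the CHR (cell cycle genes homology region), usually with nearby CCAAT boxes bound by NF-Y, whereas E2F sites are typical of S-phase genes. Bone marrow macrophages divide in growth medium that supplies M-CSF, and interferon-gamma is known as an inhibitor of that growth.

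Promoters of the members were looked at first, with the results that follow already known. Whether a motif match goes with the size of a change was not tested. RefSeq promoter windows (build GRCm38.p6, 250 bases before to 50 bases from the start site on) were matched by symbol for 38 of the 46 members. No window was found for Kif20a, Ccna2, Cdc25c, Aurkb, Tpx2, Smc4, Incenp and Pbk. A CHR was searched as TTTGAA or with the variant letters TTCGAA. The CCAAT box was searched by the letters of its name. An E2F site was searched as TTCCCGC or, in the other common form, TTGGCGC, and every motif was read on both strands. A CCAAT box on the other strand can share bases with TTGGCGC. A CHR match was present in 31 of 38 members (81.6%), against 21.7% of 27025 genes in the promoter table. A CCAAT match was present in 28 of 38 (73.7%, against 41.1%), and both elements together in 26 (68.4%, against 8.61%). An E2F match was present in 6 (15.8%, against 7.79%). Among 51 other mitosis genes and 32 DNA replication and S-phase genes, a CCAAT match was present in 62.7% and 62.5%. A CHR match was present in 62.7% and 21.9% of these lists. In the member promoters the CHR matches had a median position of -17 relative to the start site and the CCAAT matches a median of -63.5. Cenpe, Birc5, Nusap1, Nek2, Nuf2, Mad2l1 and Melk held no CHR letters in this window. A match is a description of letters and not a measured binding site.

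**Figure D1:**
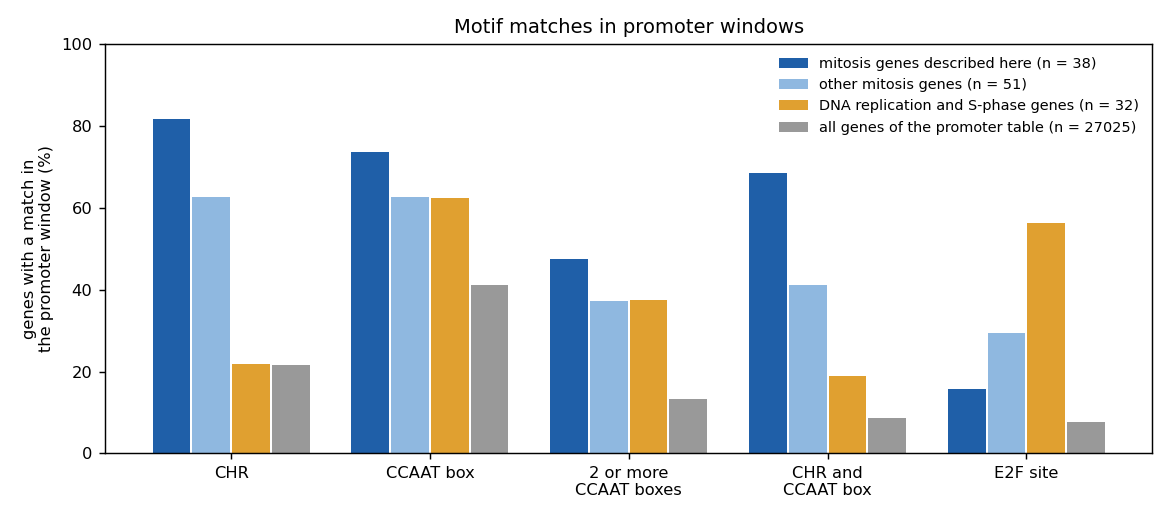
Bars give the percentage of genes whose RefSeq promoter window holds the named motif, for the 38 members with a window, 51 other mitosis genes, 32 DNA replication and S-phase genes and all 27025 genes of the table. The CHR bar of the members stands at 81.6%, against 21.9% for the replication genes, and the E2F bars stand in the opposite order, at 15.8% and 56.2%.

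The 5 promoters printed here belong to the members with the largest naive 6 h changes among those holding both a CHR and a CCAAT match. They are shown because they display the element that most of the set carries. Each is 210 bases on the gene's own strand, 5′ to 3′, from 180 bases before the start site, with CHR and CCAAT matches in capitals (ATTGG and TTCAAA are the matches read from the other strand). In GRCm38.p6, Arhgap19 lies at chr19:41802055-41802264 (minus strand), Bub1 at chr2:127831830-127832039 (minus), Hmmr at chr11:40733408-40733617 (minus), Kif11 at chr19:37376202-37376411 (plus) and Kif23 at chr9:61946770-61946979 (minus).
Arhgap19: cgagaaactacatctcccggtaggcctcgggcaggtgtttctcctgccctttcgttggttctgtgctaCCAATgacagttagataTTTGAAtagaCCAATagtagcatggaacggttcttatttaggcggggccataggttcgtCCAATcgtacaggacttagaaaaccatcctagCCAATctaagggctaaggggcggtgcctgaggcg
Bub1: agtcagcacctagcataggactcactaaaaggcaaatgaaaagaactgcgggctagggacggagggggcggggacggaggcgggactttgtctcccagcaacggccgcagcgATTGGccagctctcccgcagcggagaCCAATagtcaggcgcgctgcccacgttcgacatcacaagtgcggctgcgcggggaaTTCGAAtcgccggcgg
Hmmr: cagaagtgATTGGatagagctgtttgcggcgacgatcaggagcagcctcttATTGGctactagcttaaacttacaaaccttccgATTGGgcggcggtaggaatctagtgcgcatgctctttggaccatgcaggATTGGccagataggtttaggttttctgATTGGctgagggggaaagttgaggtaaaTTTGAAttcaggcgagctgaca
Kif11: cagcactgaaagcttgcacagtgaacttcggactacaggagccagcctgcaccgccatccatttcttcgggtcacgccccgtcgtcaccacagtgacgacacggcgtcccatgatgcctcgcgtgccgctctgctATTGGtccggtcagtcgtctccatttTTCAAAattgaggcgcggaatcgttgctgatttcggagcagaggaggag
Kif23: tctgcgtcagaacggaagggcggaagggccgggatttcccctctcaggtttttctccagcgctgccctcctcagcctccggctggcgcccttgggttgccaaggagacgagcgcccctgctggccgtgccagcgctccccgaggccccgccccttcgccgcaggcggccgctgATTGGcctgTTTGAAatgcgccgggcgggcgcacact
In Arhgap19 the CHR at position -95 sits between CCAAT boxes at -112 and -85. In Hmmr 5 CCAAT boxes precede a CHR at position 8, just inside the transcript. Bub1 carries TTCGAA at position 14, Kif11 a CHR on the other strand at -19 and Kif23 a CHR at 2, each with a CCAAT box upstream of it.

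The deposited values are log2 intensities, so a difference of 1 is a 2-fold difference. Levels are not compared between genes, except in a correlation given as a description. In what follows an adjusted p is a limma p-value adjusted by Benjamini-Hochberg over all 19938 genes, a gene passed the test where it was under 0.05, and ± gives the standard error of the limma fit. Over the 46 members the mean level was 10.06 and 9.93 on the naive 0 h arrays of set 1 and 7.96 and 7.86 on the naive 6 h arrays. In pretreated cells it was 9.98 and 10.65 at 0 h and 8.49 and 8.91 at 6 h. In set 2 the mean was 10.80 and 10.78 in naive cells at 0 h, 10.27 and 10.44 at 3 h, and in pretreated cells 10.66 and 10.76 at 0 h and 10.46 and 10.30 at 3 h. The 6 h arrays were lower than every 0 h array of set 1, and the naive 6 h arrays were lower than the pretreated 6 h arrays. Column medians over all 35557 features lay at 7.15 to 7.23 in set 1 and 6.886 to 6.997 in set 2, so the time and treatment changes were taken between arrays of the same set. Pretreated 0 h replicate 2 was above replicate 1 in 46 of 46 members, by a median of 0.62, while over all genes the median of that difference was -0.10.

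**Figure D2:**
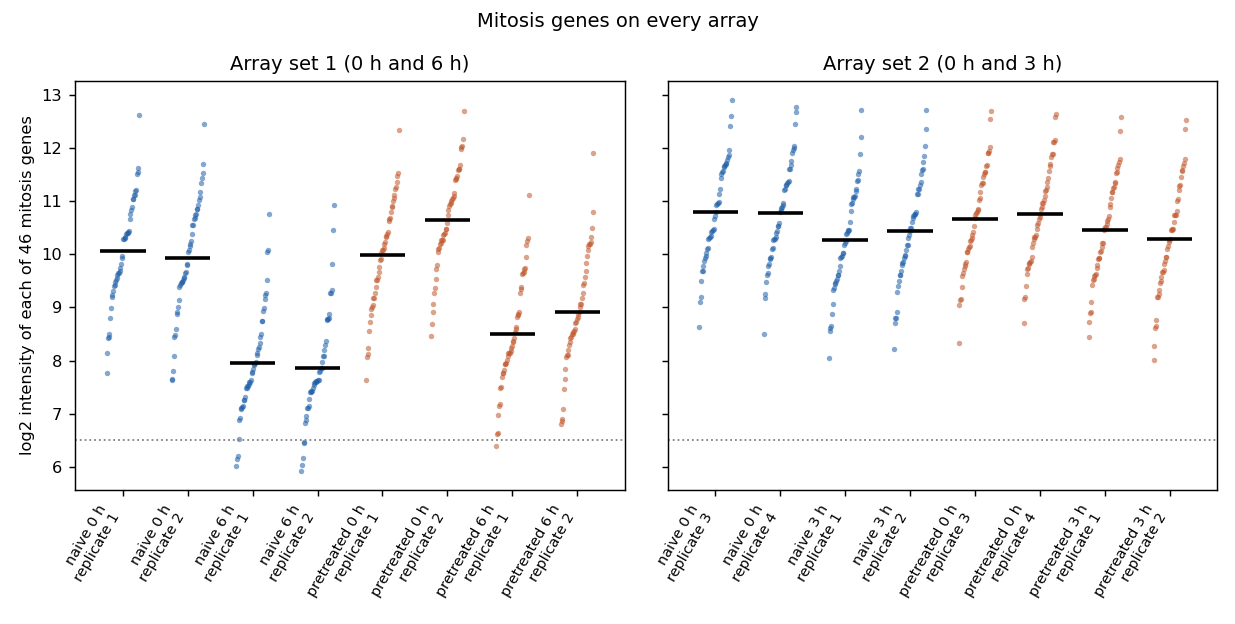
Each point is the log2 intensity of 1 of the 46 mitosis genes on 1 array, bars are the mean over genes, and the dotted line marks a log2 value of 6.5, taken as the limit for a dim feature. The naive 6 h arrays (means 7.96 and 7.86) lie lowest, the pretreated 6 h arrays (8.49 and 8.91) next, and all 0 h and 3 h arrays at 9.93 or above.

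In naive cells at 6 h all 46 measured members fell, with a median log2 change of -2.10 and a range from -3.11 (Arhgap19) to -0.84 (Espl1). Of all genes tested 10.8% were called lower in this comparison, and the median over all genes was -0.01. The fall was more than 4-fold in 25 members and 2- to 4-fold in 19, and adjusted p ranged from 1.03e-07 to 0.00943. The 0 h and 6 h arrays did not overlap in any member, against 31.3% of all genes with the 6 h arrays below both 0 h arrays. Members made up 12 of the 50 genes with the largest falls and 36 of the 200. In pretreated cells all 46 members were lower in value at 6 h and 45 passed the test, with a median of -1.70, and 2.76% of all genes were called lower. The pretreated median was -1.98 without pretreated 0 h replicate 1 and -1.27 without replicate 2. There the fall was over 4-fold in 3 members and 2- to 4-fold in 42, and arrays did not overlap in any of the 46 (22.2% of all genes). In a bulk RNA sample, fewer cells in mitosis and less of each RNA per cell cannot be told apart. The naive calls held in 45 of 46 members whichever array was left out, and Smc4 was lost without naive 0 h replicate 2 (adjusted p = 0.0732) or naive 6 h replicate 1 (adjusted p = 0.116). The pretreated calls held in 40 members; Aurkb, Ccnb2, Hmmr and Tpx2 were lost without pretreated 0 h replicate 2 or pretreated 6 h replicate 1, Tpx2 also without pretreated 6 h replicate 2, and Ncapg without pretreated 6 h replicate 1 (highest adjusted p 0.17).

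The cyclins and their kinase had median log2 changes of -2.01 in naive and -1.56 in pretreated cells, and all 4 passed the test in each. Ccna2 encodes cyclin A2, the partner of the cyclin-dependent kinases from S phase to early mitosis. It stood at 11.51 and 11.54 at 0 h and at 8.93 and 8.78 at 6 h in naive cells, and at 11.54 and 11.98 and then 9.67 and 10.32 in pretreated cells. Both 6 h pairs were far below their 0 h pairs, with a log2 change of -2.67 ± 0.19 in naive cells (adjusted p = 1.71e-06) and -1.76 ± 0.19 in pretreated cells (adjusted p = 0.000177). Cdk1, the kinase that triggers mitosis, went from 11.22 and 11.02 to 9.24 and 8.77 in naive cells and from 11.12 and 11.68 to 9.95 and 10.09 in pretreated cells. Its log2 change was -2.12 ± 0.19 in the first and -1.38 ± 0.19 in the second. Cdc25c, the phosphatase that removes the inhibitory phosphates from Cdk1, fell by 1.91 on the log2 scale in naive cells, to 6.20 and 5.92, which is below the dim limit. Ccnb2, the cyclin B2 gene, fell least of the 4, by 1.69 in naive and 1.01 in pretreated cells.

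All 9 mitotic kinases fell in each kind of cell, with median log2 changes of -1.87 in naive and -1.55 in pretreated cells. Plk1, the Polo-like kinase of mitotic entry and spindle assembly, stood at 10.90 and 10.93 at 0 h and at 8.32 and 8.36 at 6 h in naive cells. In pretreated cells it stood at 11.26 and 11.60 and then at 9.39 and 9.85. The naive replicates lay close together and the pretreated ones farther apart, and the pretreated 6 h arrays were above the naive 6 h arrays. The log2 change was -2.57 ± 0.15 in naive and -1.82 ± 0.15 in pretreated cells. Bub1, the kinetochore kinase of the spindle checkpoint with 1 of the printed promoters, went from 10.30 and 10.08 to 7.59 and 7.15 in naive cells. That was a 7.04-fold fall, and the pretreated values were 10.19 and 11.11 and then 8.23 and 8.78, a 4.42-fold fall. Its partner in the checkpoint, Bub1b, fell by 2.38 and 1.97 on the log2 scale. Nek2, a centrosome kinase, fell by 2.01 in naive cells, the Aurora kinases Aurkb and Aurka by 1.87 and 1.72, and the checkpoint kinase Ttk by 1.68. The smallest naive changes in this group were those of Pbk (-1.56) and Melk (-1.36). Melk was 1 of only 2 members with a more negative change in pretreated cells (-1.61) than in naive cells.

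The kinesins are the motors that slide, cross-link and shorten spindle microtubules, and all 9 fell, with median log2 changes of -2.36 in naive and -1.74 in pretreated cells. Kif20a, a motor of the central spindle, stood at 10.84 and 10.74 at 0 h and at 7.92 and 7.63 at 6 h in naive cells. In pretreated cells it stood at 10.68 and 11.16 and then at 8.85 and 9.43. Both naive 6 h arrays were below both pretreated 6 h arrays, and the log2 changes were -3.02 ± 0.20 and -1.78 ± 0.20. Kif11, the motor that pushes the spindle poles apart, went from 10.76 and 10.68 to 8.14 and 7.97 in naive cells and from 10.66 and 11.44 to 8.82 and 9.45 in pretreated cells. Kif23, the motor subunit of the centralspindlin complex, went from 11.11 and 10.86 to 8.45 and 8.29 in naive cells, a 6.13-fold fall, and from 11.06 and 11.43 to 9.35 and 9.69 in pretreated cells. Kif18b had the lowest adjusted p of all members in naive cells (1.03e-07), with 9.81 and 9.67 at 0 h, 7.32 and 7.28 at 6 h and a log2 change of -2.44 ± 0.12. The other naive log2 changes were those of the microtubule depolymerase Kif2c (-2.36), the chromosome arm motor Kif22 (-2.26), Kif20b (-2.13), Kif15 (-1.89) and the chromokinesin Kif4 (-1.78). Kif4 had a change of -1.74 ± 0.29 in pretreated cells.

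Kinetochore, centromere and chromosomal passenger genes fell in 7 of 7 in each kind of cell, with median log2 changes of -1.99 in naive and -1.59 in pretreated cells. Cenpa, the histone H3 variant that marks the centromere, stood at 11.56 and 11.44 at 0 h and at 9.16 and 9.27 at 6 h in naive cells, and at 11.37 and 11.61 and then 9.65 and 10.15 in pretreated cells. Its log2 change was -2.28 ± 0.17 and -1.59 ± 0.17. Cenpf and Cenpe, proteins of the outer kinetochore, fell by 2.23 and 2.17 in naive cells. Nuf2 and Ndc80, subunits of the microtubule-binding Ndc80 complex, had log2 changes of -1.99 and -1.89 in naive cells and -1.75 and -1.53 in pretreated cells. Incenp and Birc5, which hold Aurora B at the centromere, fell by 1.71 and 1.64 in naive cells and by 1.23 and 1.27 in pretreated cells.

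The checkpoint and anaphase genes had the smallest median of the roles, -1.53 in naive and -1.12 in pretreated cells, with 3 of 3 lower in each. Cdc20, the activator of the anaphase-promoting complex, went from 9.64 and 9.66 to 7.52 and 7.80 in naive cells and from 9.77 and 10.20 to 8.15 and 8.59 in pretreated cells. Mad2l1, the checkpoint protein that holds Cdc20 back, fell by 1.53 and 1.12. Espl1 encodes separase, the protease that cuts cohesin, and went from 8.42 and 8.44 only to 7.76 and 7.43 in naive cells. Its naive change of -0.84 ± 0.14 (adjusted p = 0.00126) was the smallest of all members, and its pretreated change was -1.06 ± 0.14.

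The chromosome structure genes were lower in value in 6 of 6 in each kind of cell. All 6 passed the test in naive cells (median -2.03) and 5 in pretreated cells (median -1.67). Among the condensin subunits, Ncapd2 fell by 2.30 and Ncapg by 2.19 in naive cells, while Smc2 fell by 1.69 and Smc4 by 0.85. Smc4 stood at 11.04 and 11.17 at 0 h and at 10.04 and 10.47 at 6 h in naive cells, and at 10.79 and 11.47 and then 10.32 and 10.49 in pretreated cells. Its pretreated log2 change of -0.73 ± 0.20 was the only one of the 46 that did not pass (adjusted p = 0.0542). Top2a, the topoisomerase that untangles sister chromatids, fell by 2.08 and 1.66. Mki67, the proliferation antigen that coats mitotic chromosomes, fell by 1.99 and 1.68, from 11.63 and 11.71 to 10.09 and 9.27 in naive cells.

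Among the spindle assembly genes, Hmmr and Nusap1 were near the top of the order and Tpx2 near its end. Hmmr, whose product binds spindle microtubules, went from 9.55 and 9.49 to 6.87 and 6.82 in naive cells (log2 change -2.68 ± 0.34) and from 9.01 and 10.11 to 7.19 and 8.29 in pretreated cells (-1.82 ± 0.34). The pretreated replicates of Hmmr lay far apart at both times, replicate 2 being the higher one. Nusap1 fell by 2.62 and 1.86, and Tpx2, the activator of Aurora A, by 1.14 and 1.04.

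The cytokinesis genes had a median of -2.50 in naive and -1.88 in pretreated cells, with 5 of 5 lower in each. Arhgap19, a GTPase-activating protein for RhoA, had the largest fall of all members in naive cells. It stood at 10.38 and 10.69 at 0 h and at 7.25 and 7.6 at 6 h, an 8.65-fold fall (log2 change -3.11 ± 0.17, adjusted p = 3.93e-07). In pretreated cells it stood at 10.08 and 10.48 and then at 8.43 and 8.70, a 3.28-fold fall. Anln, the scaffold of the contractile ring, went from 10.43 and 10.20 to 7.55 and 7.58 in naive cells, a 6.72-fold fall, and fell 4.21-fold in pretreated cells. Ect2, the exchange factor that activates RhoA at the cell equator, fell by 2.50 and 1.88. Prc1, which bundles the central spindle, fell by 2.41 in naive cells and had the largest pretreated fall of all members, 2.19. Racgap1, the partner of Kif23 in centralspindlin, fell by 1.95 and 1.16.

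**Figure D3:**
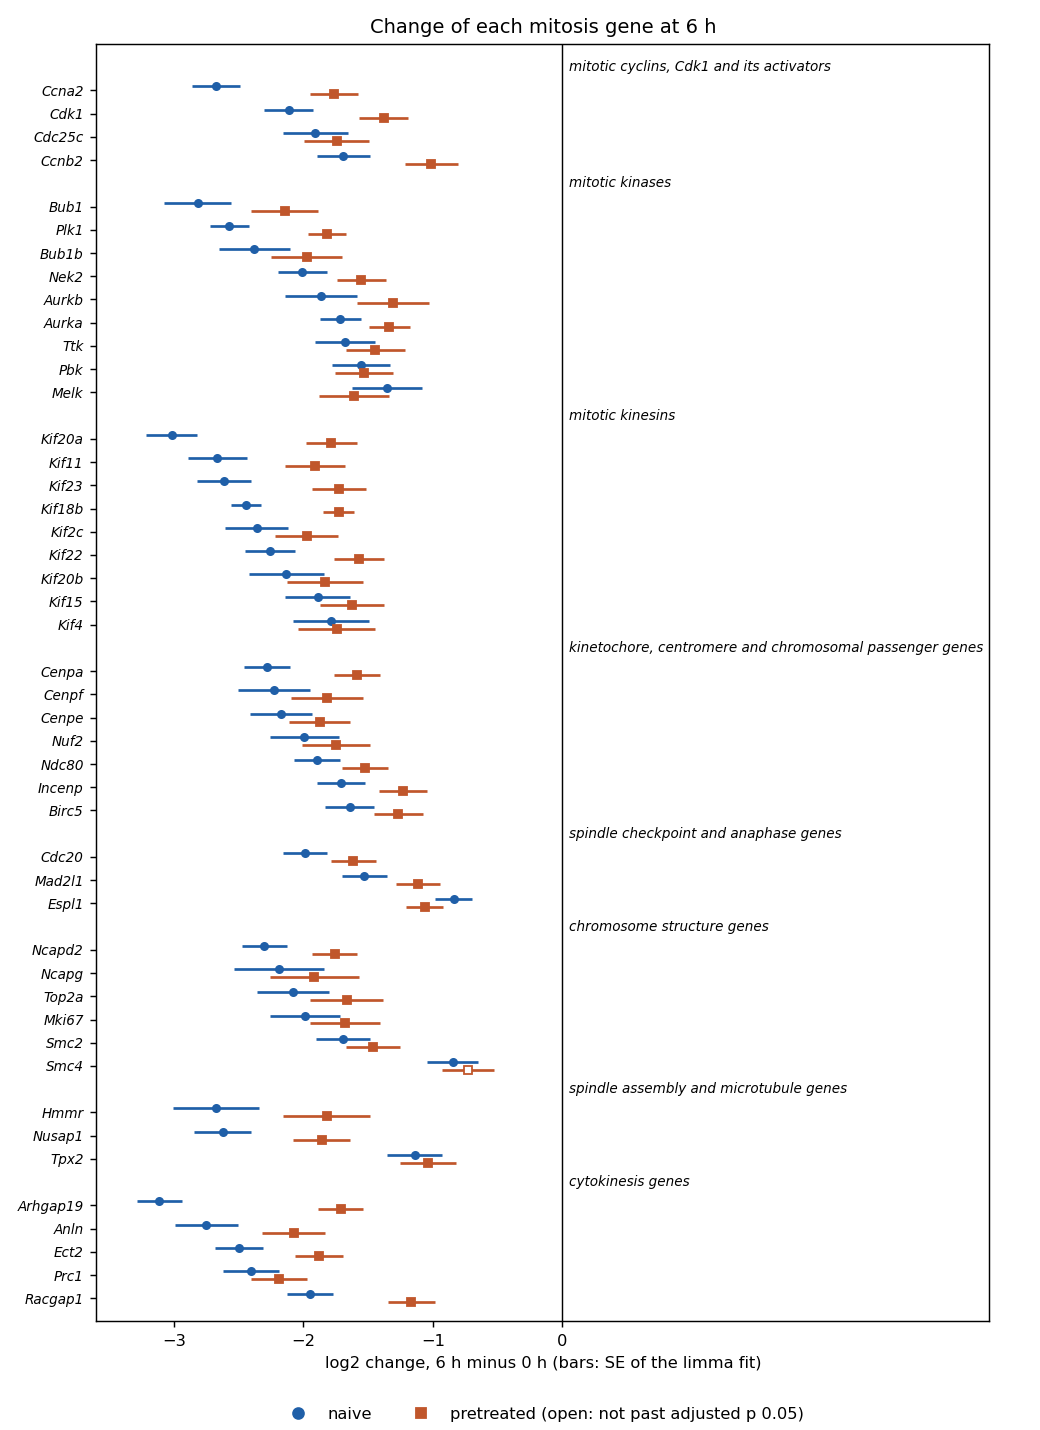
Points give the log2 change from 0 h to 6 h of each member in naive (circles) and pretreated (squares) cells with the standard error of the limma fit, grouped by role, with an open square where the adjusted p was not under 0.05. All points lie left of 0, from -3.11 (Arhgap19) to -0.73 (Smc4 in pretreated cells, the open square), and the naive point is the more negative one in 44 of 46 genes.

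Across the 46 genes the naive log2 change had a weak negative relation with the starting level (Pearson r = -0.30, Spearman rho = -0.32). Members with a higher start tended to have the larger fall. Both were log2 values from the same arrays, and the relation is given as a description only. On the naive 6 h arrays 3 and 5 members lay under 6.5, and on the pretreated 6 h arrays 1 and 0, against none on any 0 h or 3 h array. The falls of those members are thus read from values near the dim range.

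At 3 h the values were lower by less than 1 log2 unit. All 46 were lower than at 0 h in naive cells, with a median log2 change of -0.41 against 0.00 over all genes, but only 2 passed the test, against 2.09% of all genes called lower. Other mitosis genes had a median of -0.43. The 39 DNA replication and S-phase genes had a median of -0.65 in naive and -0.47 in pretreated cells at 3 h. In naive cells 25 of those 39 and 18 members had an unadjusted limma p under 0.05, against 15.3% of all genes. Incenp stood at 10.44 and 10.53 at 0 h and at 9.61 and 9.85 at 3 h, a log2 change of -0.76 ± 0.19 (adjusted p = 0.032). Kif18b stood at 10.95 and 10.84 and then at 10.39 and 10.49, a log2 change of -0.45 ± 0.12 (adjusted p = 0.0457). The 3 h arrays lay below both 0 h arrays in 45 of 46 members, Aurkb being the exception, and in 24.4% of all genes. Both calls were lost when any 1 of the 4 arrays was left out, with adjusted p up to 0.231 for Incenp and 0.267 for Kif18b. Pbk had a log2 change as large as that of Incenp (-0.76 ± 0.23) with an adjusted p of 0.0801, and Ccnb2 had the smallest (-0.13 ± 0.20). In pretreated cells at 3 h no member passed the test, while 0.998% of all genes were called lower. There 7 of 46 members and 13.4% of all genes had an unadjusted limma p under 0.05, all 46 were lower in value with 42 free of overlap (20.9% of all genes), and the median was -0.33. The lowest adjusted p was that of Incenp, 0.0952, at 10.43 and 10.47 at 0 h and 9.92 and 9.67 at 3 h.

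The change from 3 h to 6 h was tested as the difference between the 2 naive changes, each taken within its own array set. It passed for 29 of 46 members, all towards a larger fall at 6 h, with a median difference of -1.62 and 1.05% of all genes called in that direction. The largest were Arhgap19 (-2.66 ± 0.25), Kif20a (-2.40 ± 0.28) and Ccna2 (-2.31 ± 0.26), and Plk1 had -2.25 ± 0.21. The call held for 12 of the 29 whichever array was left out. Leaving out naive 0 h replicate 4 gave 18 and leaving out naive 3 h replicate 2 gave 12. Time and array set coincide in this comparison and cannot be told apart. At 0 h the members were higher in set 2 than in set 1 by a median of 0.79 in naive cells, while over all genes the median was -0.35, so the 2 sets did not start from the same level.

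At 0 h, before the time course, no member passed the test between pretreated and naive cells, where 0.808% of all genes were called higher and 0.155% lower. The median difference was 0.14, 40 of 46 were positive, and 1 had an unadjusted limma p under 0.05 (7.87% of all genes). The direction of this median depended on the arrays: it was 0.30 without pretreated 0 h replicate 1 and -0.03 without replicate 2, and 0.35 in set 1 and -0.06 in set 2 fitted alone. That gene was Arhgap19, with naive values of 10.38, 10.69, 10.36 and 10.30 and pretreated values of 10.08, 10.48, 10.09 and 9.95, a log2 difference of -0.28 ± 0.12 (adjusted p = 0.591). The pretreated values overlap the naive ones, and the other extreme was Aurkb, at 0.33 ± 0.20. At 3 h no member passed either (0.0150% of all genes called in either direction, none of the members at an unadjusted p under 0.05), with a median difference of 0.05.

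At 6 h all 46 members were higher in pretreated than in naive cells in value, and 11 passed the test, with a median log2 difference of 0.76 and 0.431% of all genes called higher. Plk1 had 9.39 and 9.85 on the pretreated and 8.32 and 8.36 on the naive arrays, a log2 difference of 1.27 ± 0.15 (adjusted p = 0.00304). Kif18b had 8.36 and 8.5 against 7.32 and 7.28, a difference of 1.13 ± 0.12 (adjusted p = 0.00175). Kif20a had the largest difference, 1.37 ± 0.20 (adjusted p = 0.0129), and its pretreated values of 8.85 and 9.43 were above both naive values. The others were the cytokinesis genes Racgap1 (1.22), Arhgap19 (1.14) and Ect2 (0.98), the kinesins Kif23 (1.15) and Kif22 (1.0), Ccna2 (1.14), Cdk1 (1.01) and the condensin gene Ncapd2 (0.93). By role, 4 of 9 kinesins, 3 of 5 cytokinesis genes, 2 of 4 cyclin and Cdk1 genes, 1 of 9 kinases and 1 of 6 chromosome structure genes passed, and none of the 7 kinetochore, 3 checkpoint and 3 spindle assembly genes did. Pretreated and naive arrays did not overlap in 42 of 46 members, against 24.2% of all genes in this direction. The exceptions were Smc4 (0.15 ± 0.20), Melk (0.26 ± 0.27), Mki67 (0.28 ± 0.27) and Kif4 (0.44 ± 0.29). With 1 array left out, naive 6 h replicate 1 or pretreated 6 h replicate 2 being the missing one gave 2, pretreated 6 h replicate 1 gave 6 and naive 6 h replicate 2 gave 8. Plk1 and Kif18b passed in every case. With other fits the count was 0 with no array-set term, 2 with array set 1 fitted alone and 24 with array weights. Pretreated 6 h replicate 2 was above replicate 1 in 45 of 46 members, by a median of 0.44, against -0.05 over all genes. The median difference from naive cells at 6 h was 1.03 without pretreated 6 h replicate 1 and 0.56 without replicate 2.

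**Figure D4:**
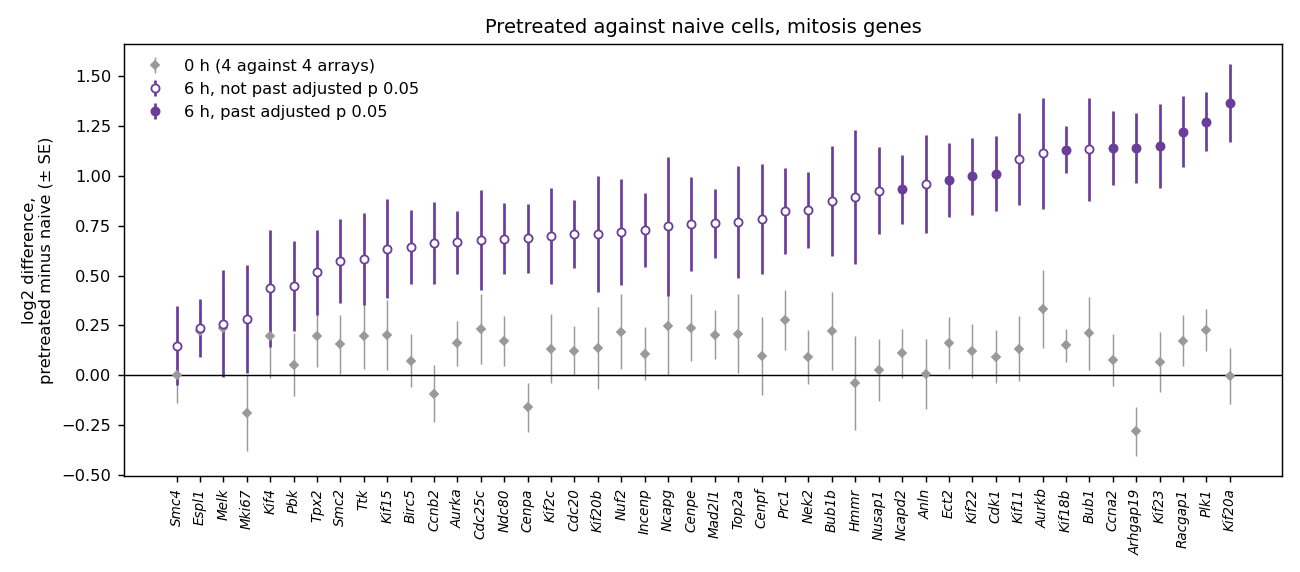
Each gene has its pretreated minus naive log2 difference at 6 h (circles, 2 against 2 arrays, filled where the adjusted p was under 0.05) and at 0 h (grey diamonds, 4 against 4 arrays), with standard errors of the limma fit, in order of the 6 h value. The 6 h values rise from 0.15 (Smc4) to 1.37 (Kif20a), while the 0 h values lie between -0.28 and 0.33.

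Whether the fall itself was smaller after pretreatment was tested as the difference between the 2 changes. No member passed this test at 6 h with limma, where 0.0301% of all genes were called in that direction. The naive fall was the larger one in 44 of 46 members, by a median of 0.41, and 15 had an unadjusted p under 0.05 (9.12% of all genes). The exceptions were Melk and Espl1. The lowest adjusted p was that of Arhgap19, 0.0603, with a difference of 1.40 ± 0.25, and Kif20a followed in size with 1.23 (adjusted p = 0.147). The median depended on the pretreated 0 h arrays, being 0.13 without replicate 1 and 0.77 without replicate 2. With other fits the count was 5 with an additive array-set term and 1 with a trended, robust variance model, and it was 1 without naive 6 h replicate 2. At 3 h none of the members passed (0 at an unadjusted p under 0.05), against 0.0802% of all genes called in either direction.

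Other genes of mitosis, written as a list of 64 with 61 measured, gave 52 lower and none higher in naive cells at 6 h, with a median of -1.41. The largest falls were those of the spindle gene Ckap2 (-2.60 ± 0.29), Aspm (-2.58 ± 0.25), Mastl, the Greatwall kinase (-2.54 ± 0.22), and Pimreg (-2.53 ± 0.24). In pretreated cells 45 of 61 were lower, with a median of -1.25, and 8 were higher in pretreated than in naive cells at 6 h. Those that did not pass in naive cells were Cenpi, Cenpt, Cenpw, Haspin, Mis12, Plk4, Psrc1, Pttg1 and Trip13, and securin (Pttg1) had a positive value, 0.37 ± 0.16. Among DNA replication and S-phase genes, 20 of 39 were lower and 2 higher in naive cells at 6 h (median -0.83), and 9 were lower in pretreated cells (median -0.56). Asf1b, Rrm2, Mcm7 and Chaf1b fell most in naive cells, by 2.05, 1.94, 1.83 and 1.61, while the sliding clamp gene Pcna rose by 0.59 ± 0.14.

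Regulators of the set had calls in both directions. Over all genes 10.8% were called lower and 7.48% higher in naive cells at 6 h. Of 23 measured transcription factor and DREAM complex genes, 9 were lower and 3 higher in naive cells at 6 h. Foxm1, the activator of late cell cycle genes, fell by 2.10 ± 0.17 in naive and 1.22 ± 0.17 in pretreated cells, and at 6 h it was higher in pretreated than in naive cells by 1.10 ± 0.17 (adjusted p = 0.0183). Rbl1, which encodes the DREAM pocket protein p107, rose by 2.06 ± 0.22 and 1.09 ± 0.22, and the NF-Y subunit Nfyb rose by 1.79 ± 0.31 in naive cells. Tfdp2, a partner of E2F factors, and Lin9, a core subunit of DREAM and of the activating B-Myb complex, fell by 1.73 and 1.61 in naive cells. Mybl2, the B-Myb gene, had a log2 change of -0.49 with an adjusted p of 0.499. Of 19 inhibitors and arrest genes 3 were higher and 2 lower in naive cells, against those same shares of all genes. Cdkn1a and Trp53 were also on this list but were not measured by the rule used for the members. Gadd45b, Gadd45g and Btg1 rose by 1.70, 1.19 and 0.68, and Trp53inp1 and Cdkn2c fell by 1.42 and 1.40. Of 10 G1 cyclin and kinase genes Ccnd2 rose by 3.03 ± 0.56 (adjusted p = 0.00221), Cdk2 and Cdk4 fell by 0.80 and 0.55, and Ccnd1 and Myc had changes of 1.60 (adjusted p = 0.0852) and 0.49 (adjusted p = 0.8). At naive 3 h 4 of the 23 transcription factor and DREAM genes and 2 of the 10 G1 genes were called lower, and none higher. Of the 19 inhibitors 2 were called higher and 1 lower. Over all genes 2.09% were called lower and 3.37% higher at that time. The naive 3 h arrays had Cdk2 lower by 0.78 ± 0.13 and Gadd45g higher by 1.51 ± 0.23. The treatment itself was visible in 7 of 7 interferon-gamma check genes, with Cxcl9 up by 7.12 and Irf1 by 2.26 in naive cells at 6 h and by 1.90 and 1.43 in pretreated cells. The pretreated cells started from a higher level. At 0 h all 7 were called higher in pretreated than in naive cells (median 1.48), against 0.808% of all genes. At 6 h none of the 7 was called between pretreated and naive cells (median -0.11), against 0.702% of all genes in either direction.

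**Figure D5:**
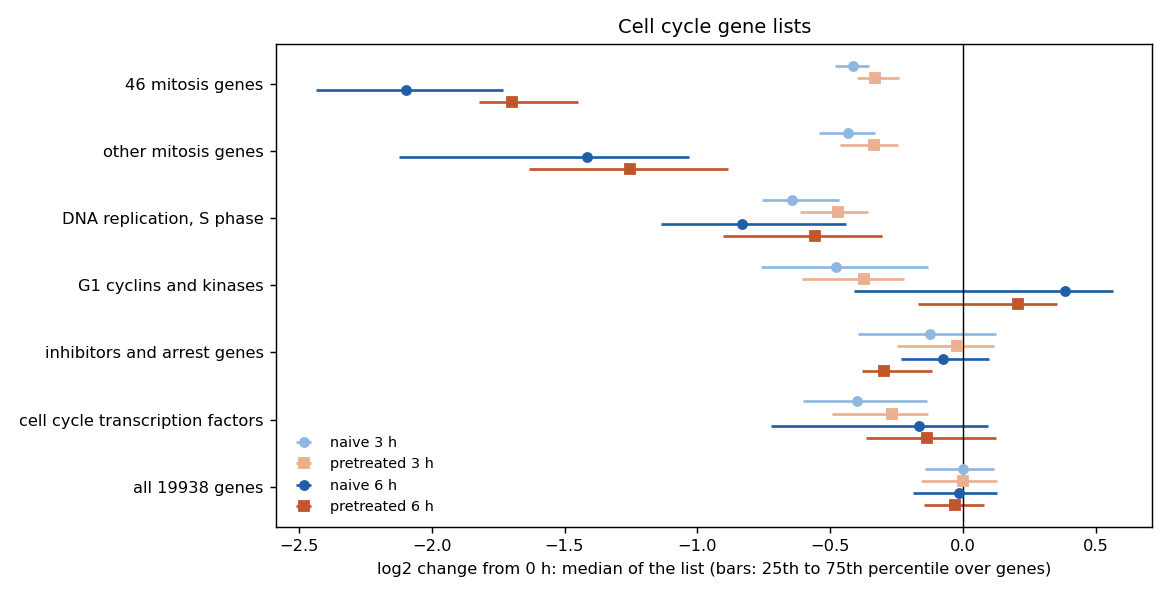
Points are the median log2 change from 0 h over the genes of a list, and bars run from the 25th to the 75th percentile over genes, in naive and pretreated cells at 3 and 6 h. The 46 members are farthest from 0 at 6 h (-2.10 and -1.70), the other mitosis genes (-1.41 and -1.25) and the replication genes (-0.83 and -0.56) follow, and all genes sit near 0. At 3 h the replication genes are farthest from 0 (-0.65 in naive and -0.47 in pretreated cells), and the members stand at -0.41 and -0.33.

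The labelled cell type was checked against its markers: 9 of 9 measured macrophage markers had a mean above 6.5, among them Csf1r (13.32) and Adgre1 (13.24). Of 48 measured markers of other cell types 23 had a mean of at least 6.5, and in naive cells at 6 h 3 rose and 3 fell, where 7.48% of all genes were called higher and 10.8% lower. The fallen ones were Cd34 (-1.20 ± 0.22, adjusted p = 0.00193), the erythropoietin receptor gene Epor (-0.60) and Cd79b (-0.58), and the risen ones Clec9a, Xcr1 and Klrd1. The largest change was a rise of 4.44 in the dendritic cell list, where 2 of 5 were called higher. In pretreated cells the largest change in that list was 3.62, and 1 of 5 was called higher. Cd34, a progenitor marker, also fell in pretreated cells (-1.03 ± 0.22). The 4 progenitor markers, Kit, Cd34, Gata2 and Meis1, summed to 29.34 to 30.77 log2 units on the naive 0 h arrays of set 1 and 28.46 to 29.16 on the naive 6 h arrays, and Kit had a mean of 6.5. In pretreated cells the sums were 29.63 to 30.55 and 28.41 to 29.46. Of the 4, Cd34 alone passed the test: in naive cells at 6 h Kit, Gata2 and Meis1 had log2 changes of -0.06, 0.03 and -0.01, and the median of the list was -0.04. The part of progenitor RNA in the fall of the mitosis genes was not tested.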

How the data were processed

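RNA from 16 samples was hybridised to 1-colour mouse gene arrays. The authors deposited log2 intensities from biotin-labelled RNA, per the labels and the file's values. How these were normalized and summarised is not stated in those sources. The values were used as deposited. Precision is set by the number of arrays, 2 in each group of a set.

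Of 35557 features 21789 carry 1 gene symbol in the platform annotation, which can be old, 1621 several and 12147 none. The 21789 were checked by gene identifier against a current gene table, where 21698 matched and no symbol changed. For 999 genes several features were present, and the brightest on average stood for the gene, which gave 19938 genes.

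A limma fit (version 3.58.1, R 4.3.3) gave each of 8 combinations of group and array set its own mean (8 residual, 4.26 prior degrees of freedom). Contrasts were taken within a set, averaged over both sets for pretreated against naive at 0 h. Benjamini-Hochberg adjustment of the limma p-values ran over 19938 genes, with calls under 0.05. The script was tested on simulated data with known changes. Alternatives covered the array-set term, a half-set block, fitting a set alone, dim genes, feature choice, quantile normalization, variance model, array weights, a 2-fold limit and leaving out each array. Promoter windows came from RefSeq (GRCm38.p6) and were searched for exact letters. The mitosis genes, the other lists, the motifs and the tests were chosen with earlier results of these data known. All members are named with a value; of the other lists up to 4 called genes with the largest naive 6 h changes and a few check genes fixed by name are given. Cenpi, Cenpt, Cenpw, Haspin, Mis12, Plk4, Psrc1, Pttg1, Trip13, Pcna, the regulators at 3 h and the other cell type markers that changed were named after their values were seen.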

Additional observations from a re-analysis of the deposited data

Results flagged for a closer look

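A test for a single deviating array in groups of 4 (Dixon's ratio above 0.829, which chance exceeds in about 1 in 20 groups) was run on 94 sets of 0 h values, naive and pretreated. Pretreated 0 h replicate 1 stood apart as the lowest of its group in Kif11 (10.66), Bub1 (10.19), Ccnb2 (12.34), Birc5 (9.17), Mki67 (11.24), Anln (10.23) and Hmmr (9.01) and in the mean over the 46 mitosis genes (9.98). Pretreated 0 h replicate 2 stood apart as the highest in Incenp (10.92). The 4 arrays of this group span both array sets and were set against each other across them, while the members' values at 0 h were higher in set 2 than in set 1 by a median of 0.43 in pretreated cells. The part of that offset in these values was not tested.

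The naive log2 change at 6 h was more negative than that at 3 h, by the test of the difference itself, in 29 mitosis genes. Below -2 were Arhgap19 (-2.66), Kif20a (-2.40), Ccna2 (-2.31), Nusap1 (-2.31), Kif11 (-2.27), Plk1 (-2.25), Hmmr (-2.21), Bub1 (-2.21), Ect2 (-2.13), Anln (-2.08), Kif22 (-2.03), Kif2c (-2.02), Cenpe (-2.02). The others were Kif18b (-1.998), Cenpa (-1.99), Kif23 (-1.98), Prc1 (-1.93), Bub1b (-1.92), Ncapd2 (-1.91), Cenpf (-1.82), Nek2 (-1.60), Racgap1 (-1.60), Cdc20 (-1.58), Ccnb2 (-1.57), Cdk1 (-1.52), Ndc80 (-1.45), Aurka (-1.38), Birc5 (-1.29), Mad2l1 (-1.08). The 2 times lie on different array sets, so time and set cannot be told apart.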

How the results depend on the processing

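With 2 arrays per group and set the number of arrays limits the precision. The falls of the members that ended under 6.5 are read from values in the dim range, and whether that limited them was not tested. Over the members named singly, 6906 values under other settings kept their side of the threshold, 145 lost the call and 124 gained it. A change of sign was counted only where the value passed in at least 1 of the 2 settings compared. Values that passed in neither could change sign and still stand among the 6906. The 1 counted change of sign was that of Kif18b at naive 3 h. It had a log2 change of 0.13 with no array-set term, where 0 h arrays of both sets are averaged. The cause of the other changes was not tested.

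The count of members called was 44 to 46 at naive 6 h and 40 to 46 at pretreated 6 h under every setting, and 0 throughout for pretreated against naive at 0 h and at 3 h and for the difference of changes at 3 h. At naive 3 h it was 2, and became 1 with an additive array-set term, 1 with no array-set term, 1 with a trended robust variance model, 7 with its array set alone, 5 with array weights, 0 with a 2-fold limit, and 0 to 0 with 1 array left out. For the 6 h change minus the 3 h change it was 29, and became 45 with no array-set term and 12 to 28 with 1 array left out. It was 42 with an additive array-set term, 40 with array weights and 34 with dim genes left out. Counts that stayed within 1.5 times of the first one are otherwise not listed. At pretreated 3 h it was 0, and became 1 with an additive array-set term and 1 with no array-set term. For pretreated against naive at 6 h it was 11, and became 0 with no array-set term, 2 with its set alone, 24 with array weights and 2 to 8 with 1 array left out. For the difference of changes at 6 h it was 0, and became 5 with an additive array-set term, 1 with a trended robust variance model and 0 to 1 with 1 array left out.

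Arrays 1 to 4 and 5 to 8 of a set, by the number in the titles, share only a position, and their deviations from the group means correlated at 0.082 to 0.662. With this half-set as a replicate block the count was 4 at naive 3 h, 1 at pretreated 3 h, 25 for pretreated against naive at 6 h and 2 for the difference of changes at 6 h, and the other counts stayed within 1.5 times.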
